A study of Homo sapiens with 6 samples.

Results

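The kinetochore, centromere and spindle checkpoint genes described here are 49 genes chosen by symbol. The rule holds no measured value, but the genes were chosen with earlier results of these data known. All 49 were found among the 30327 genes of the count table. All 49 also had enough reads to be among the 15801 genes tested. The genes were measured by RNA-seq in SK-BR-3, an established HER2-positive breast cancer cell line of luminal type. The study asked which genes change when GRB2, the adaptor protein that couples receptors such as HER2 to RAS signalling, is depleted. Its control group, si_NC, is 3 libraries of cells transfected with a nontargeting siRNA, and its treated group, si_GRB2, is 3 libraries of cells transfected with the siRNA to GRB2. The sample descriptions read si_NC and si_GRB2, whereas the titles and the design text of the treated group speak of GRB2 overexpression, so GRB2 itself was read first. All cells are of 1 line, and the groups differ by the siRNA given. The study's methods give 1 siRNA sequence against GRB2, and effects of GRB2 loss and other effects of that siRNA on the genes below cannot be told apart. The labels name no separate cultures, so p-values measure the spread between these libraries, which may be technical.

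The kinetochore is the protein structure that joins each centromere to the spindle microtubules during cell division. Its inner layer, the constitutive centromere-associated network (CCAN), sits on nucleosomes that hold the histone variant CENP-A, and its outer layer, built of the KNL1, MIS12 and NDC80 complexes, binds microtubules and serves as the platform of the spindle checkpoint, which delays anaphase until every chromosome is attached. CENP-T, CENP-W, CENP-S and CENP-X are histone-fold proteins of the CCAN that assemble into a nucleosome-like complex on centromeric DNA, and CENP-T reaches out from it to the NDC80 complex. Most of these genes are transcribed periodically, toward the G2 and M phases of the cell cycle, and many are highly expressed in proliferating tumour cells.

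CENPW, the gene of a small histone-fold subunit of that complex, differed most from its partners, and the promoters of the complex are shown first, with those of OIP5, CDCA8 and ZW10, which are members with large falls or the largest rise. The windows are from RefSeq on GRCh38.p14 and run from 250 bases before to 50 bases after the RefSeq transcription start, 5′ to 3′ on the strand of the gene. Capitals mark CCAAT, the box bound by NF-Y, and TTTGAA or TTTAAA, common letters of the cell cycle genes homology region. They also mark TTCCCGC or TTGGCGC, letters typical of E2F sites. Each was searched on either strand, and other spellings were not searched. The CENPW window is chr6:126339865-126340164 on the plus strand, that of CENPT is chr16:67847644-67847943 on the minus strand, that of CENPS is chr1:10430183-10430482 on the plus strand and that of CENPX is chr17:82022829-82023128 on the minus strand. The OIP5 window is chr15:41332542-41332841 on the minus strand, that of CDCA8 is chr1:37692266-37692565 on the plus strand and that of ZW10 is chr11:113773643-113773942 on the minus strand.
CENPW: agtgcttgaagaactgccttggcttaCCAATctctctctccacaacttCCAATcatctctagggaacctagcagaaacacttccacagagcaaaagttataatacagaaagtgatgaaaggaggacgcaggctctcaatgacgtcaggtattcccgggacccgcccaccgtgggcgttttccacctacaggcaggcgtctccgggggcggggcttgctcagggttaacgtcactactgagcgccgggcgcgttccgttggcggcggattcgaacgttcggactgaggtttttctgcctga
CENPT: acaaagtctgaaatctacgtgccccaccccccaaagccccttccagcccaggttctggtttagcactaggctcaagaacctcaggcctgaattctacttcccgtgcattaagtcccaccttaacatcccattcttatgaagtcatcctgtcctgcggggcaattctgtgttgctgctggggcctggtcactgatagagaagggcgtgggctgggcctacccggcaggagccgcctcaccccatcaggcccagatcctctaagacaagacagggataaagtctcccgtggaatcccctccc
CENPS: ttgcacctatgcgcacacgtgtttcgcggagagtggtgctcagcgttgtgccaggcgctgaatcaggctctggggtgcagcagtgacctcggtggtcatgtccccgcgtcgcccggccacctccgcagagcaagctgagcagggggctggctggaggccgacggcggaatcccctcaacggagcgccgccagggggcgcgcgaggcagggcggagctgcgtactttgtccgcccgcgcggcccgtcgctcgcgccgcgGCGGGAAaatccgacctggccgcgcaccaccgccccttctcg
CENPX: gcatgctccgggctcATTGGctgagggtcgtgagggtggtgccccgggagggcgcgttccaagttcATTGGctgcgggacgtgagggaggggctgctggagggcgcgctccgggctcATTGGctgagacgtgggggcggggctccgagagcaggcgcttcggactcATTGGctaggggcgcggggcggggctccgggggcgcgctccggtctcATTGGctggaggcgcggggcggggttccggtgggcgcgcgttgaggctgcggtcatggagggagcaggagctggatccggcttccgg
OIP5: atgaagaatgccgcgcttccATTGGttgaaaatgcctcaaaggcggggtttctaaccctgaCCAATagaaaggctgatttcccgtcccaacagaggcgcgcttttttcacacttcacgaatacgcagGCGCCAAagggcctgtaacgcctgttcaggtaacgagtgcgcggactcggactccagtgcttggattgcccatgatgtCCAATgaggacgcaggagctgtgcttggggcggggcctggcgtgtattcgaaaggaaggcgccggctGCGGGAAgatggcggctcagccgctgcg
CDCA8: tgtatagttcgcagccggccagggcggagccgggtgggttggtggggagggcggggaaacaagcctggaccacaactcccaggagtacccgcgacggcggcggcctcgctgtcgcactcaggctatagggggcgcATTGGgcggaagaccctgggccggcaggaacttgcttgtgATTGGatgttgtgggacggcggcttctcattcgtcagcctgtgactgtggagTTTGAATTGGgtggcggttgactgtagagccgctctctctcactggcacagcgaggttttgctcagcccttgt
ZW10: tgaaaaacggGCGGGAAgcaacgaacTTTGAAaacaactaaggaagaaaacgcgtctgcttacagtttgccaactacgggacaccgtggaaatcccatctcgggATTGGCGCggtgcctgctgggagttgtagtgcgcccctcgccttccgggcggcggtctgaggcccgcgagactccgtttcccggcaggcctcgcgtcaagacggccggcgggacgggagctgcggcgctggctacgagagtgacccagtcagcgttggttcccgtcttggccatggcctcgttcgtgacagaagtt
The 4 genes of the complex share no arrangement of these letters. CENPW has CCAAT at bases 27 and 49 of its window, CENPX has it 5 times on the other strand, CENPS has only TTCCCGC on the other strand, at base 259, and CENPT has none of the motifs. In CDCA8 the TTTGAA at base 228 and a CCAAT on the other strand overlap, as do CCAAT on the other strand and TTGGCGC in ZW10. A match of letters is a description and was not tested as a binding site.

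Across the members, promoter windows were found in RefSeq for 40 genes, in 46 entries, and none were matched for BIRC5, BUB3, CENPH, CENPL, CENPM, KNL1, KNTC1, MIS18A and TTK. CCAAT on either strand was held by 65.2% of the 46 member windows and by 34.9% of 15406 windows of tested genes. TTTGAA was held by 39.1% of member windows, against 10.5% of windows of tested genes. TTCCCGC or TTGGCGC was held by 28.3% against 13.4%, and TTTAAA by 10.9% against 8.27%. Over all 35116 windows of the table the shares were 34.6% for CCAAT, 15.2% for TTTGAA, 9.23% for TTCCCGC or TTGGCGC and 12.2% for TTTAAA. Every motif was thus held by a larger share of member windows than of windows of tested genes, by a small margin for TTTAAA. The choice of members did not use this feature, and the differences were not tested. The shares count windows, so a gene with several entries counts with each of them, and members without a matched window are absent. The 16 windows of members that fell held CCAAT in 11 entries (68.8%), TTTGAA in 9 (56.2%), TTCCCGC or TTGGCGC in 3 (18.8%) and TTTAAA in 1 (6.25%). Those with TTTGAA were BUB1B, CDCA8, CENPF, CENPO, HJURP, MAD2L1, NDC80, SKA3 and SPC25. CENPW and OIP5, whose levels fell most, had neither TTTGAA nor TTTAAA in their windows. Both windows hold the similar letters TTCGAA, which were not searched, so their share in other windows is not known. Whether any of these shares differs from that of the other members was not tested.

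GRB2 stood at 124, 130 and 126 CPM in si_NC, where CPM are read counts scaled to library size with the TMM factors of edgeR, and at 27.8, 28.1 and 29.6 CPM in si_GRB2. Its log2 fold change was −2.15 (SE 0.04, adjusted p = 3.87e-15), so the libraries labelled si_GRB2 carried less GRB2 mRNA, the direction of a knockdown. The library totals ran from 24810378 to 28532480 reads on genes, and the members had between 107 and 7240 reads in a library. Replicates of a group differed from each other by more than sampling noise. Of 7 luminal and HER2 markers, 6 were tested, of which 1 rose (ERBB2) and 4 fell. The list summed to 17091 to 17467 CPM in si_NC and 14293 to 14870 CPM in si_GRB2, mostly from ERBB2 and keratins. GATA3 was low, at 3.06 to 3.89 CPM in si_NC and 4.19 to 4.41 CPM in si_GRB2, and did not pass the test. CDH1, the epithelial cadherin, was under 1 CPM in every library. Of 6 fibroblast and endothelial markers 4 were under 1 CPM in every library, with sums of 5.24 to 7.49 CPM in si_NC and 5.32 to 6.2 CPM in si_GRB2, and of 5 leukocyte markers 4 were, with sums of 1.93 to 2.67 and 1.46 to 1.71 CPM. The 4 basal epithelial markers summed to 24.5 to 27 CPM in si_NC and to 12.2 to 13.2 CPM in si_GRB2, where KRT5 and KRT17 fell.

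CENPW (ENSG00000203760.9, GRCh38 chromosome 6, 126340115 to 126348875, plus strand) fell 4.66-fold. Its levels were 18.8, 21.5 and 18.9 CPM in si_NC and 4.25, 4.04 and 4.38 CPM in si_GRB2. The lowest si_NC library therefore stood far above the highest si_GRB2 library, and within each group the libraries lay close together. On average si_NC had 19.7 ± 1.51 CPM and si_GRB2 4.23 ± 0.173 CPM (SD, n = 3 each), and the log2 fold change was −2.22 (SE 0.09, adjusted p = 3.72e-11). This was the lowest log2 fold change of the 15801 genes tested and that of GRB2 itself was the next lowest. It was also the lowest among the genes with a mean of at least 5 CPM in every alternative fit, which held 9844 to 10624 such genes, while over all genes of a fit it ranked 3 without si_GRB2 replicate 2 and with limma on log2(FPKM + 0.1), 2 without si_GRB2 replicate 3, 455 with DESeq2 and 938 in edgeR with no filter on low counts. No exon base of CENPW is shared with another annotated gene in GENCODE 44. Of the 6 other tested genes within 1 Mb of it, log2 fold changes ran from −0.15 to 0.37, and 1 passed the test, RNF146, a ubiquitin ligase gene, at 0.28 (adjusted p = 0.00962).

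None of the 3 partners of CENPW passed the test. CENPT (ENSG00000102901.13, chromosome 16, 67828157 to 67847811, minus strand), which encodes the subunit that recruits the NDC80 complex, had 25, 26.3 and 27.3 CPM in si_NC and 24, 25.1 and 22.9 CPM in si_GRB2. The groups overlapped, and the log2 fold change was −0.13 (SE 0.05, adjusted p = 0.0995). Of the exon bases of CENPT, 20.2% overlap the opposite-strand genes TSNAXIP1, THAP11 and NUTF2, none of which passed the test. NUTF2 had 11426 reads and THAP11 3382, against 4008 for CENPT. CENPX (ENSG00000169689.15, chromosome 17, 82018702 to 82024107, minus strand), a partner of CENP-S that also works with it in the Fanconi anaemia pathway of DNA repair, had 181, 183 and 182 CPM in si_NC and 192, 186 and 180 CPM in si_GRB2. These groups overlapped too, with a log2 fold change of 0.03 (SE 0.03, adjusted p = 0.516). CENPS (ENSG00000175279.22, chromosome 1, 10430433 to 10442808, plus strand) had 6.17, 6.98 and 5.95 CPM in si_NC and 5.32, 4.59 and 5.37 CPM in si_GRB2. Its groups did not overlap, and its log2 fold change was −0.32 (SE 0.12, adjusted p = 0.0520), just short of the threshold of 0.05. Of the exon bases of CENPS, 65% also belong to the read-through gene CENPS-CORT, which had 1994 reads against 914 for CENPS itself. Adding the reads of CENPS-CORT was an alternative chosen after the values were seen. The sum of both genes had a log2 fold change of −0.23 (adjusted p = 0.0047), and CENPS-CORT alone had −0.19 (adjusted p = 0.0513). The adjusted p thus lay on either side of the threshold, while the change stayed small beside that of CENPW.

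Levels of the 4 genes were compared per length, in the authors' FPKM. CENPX was highest, with 92.2, 95.2 and 99.3 FPKM in si_NC and 100.4, 102.7 and 98.4 FPKM in si_GRB2. CENPW followed in si_NC with 17.17, 19.99 and 18.45 FPKM, and had 3.99, 4 and 4.29 FPKM in si_GRB2. CENPW was thus well below CENPX in every library, and its own groups did not overlap. CENPT had 3.44, 3.69 and 4.03 FPKM in si_NC and 3.40, 3.75 and 3.38 FPKM in si_GRB2. CENPS had the lowest values as deposited, with 2.75, 3.18 and 2.85 FPKM in si_NC and 2.44, 2.22 and 2.57 FPKM in si_GRB2. The order of the genes by mean FPKM was the same in the control and the treated group, and in each group no neighbours in it overlapped, but in si_GRB2 CENPW lay just above CENPT. The place of CENPS holds only for reads assigned to CENPS itself, since CENPS-CORT, which shares most of its exon bases, had more reads. The ratio of CENPW to CENPT in FPKM went from 5 ± 0.42 in si_NC to 1.17 ± 0.101 in si_GRB2 (SD, n = 3 each), a 4.27-fold fall. The ratio to CENPS went from 6.33 ± 0.122 to 1.70 ± 0.088 (SD, n = 3 each), a 3.72-fold fall, and that to CENPX from 0.194 ± 0.0138 to 0.0408 ± 0.00248 (SD, n = 3 each), a 4.76-fold fall. For each of the 3 ratios every si_GRB2 library was below every si_NC library, and the two-sided exact permutation test gave p = 0.1 (0.1 after Benjamini-Hochberg adjustment over the 3 ratios), the smallest p that 3 libraries against 3 allow. The fall of CENPW relative to its partners therefore could not reach 0.05 in this test.

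**Figure D1:**
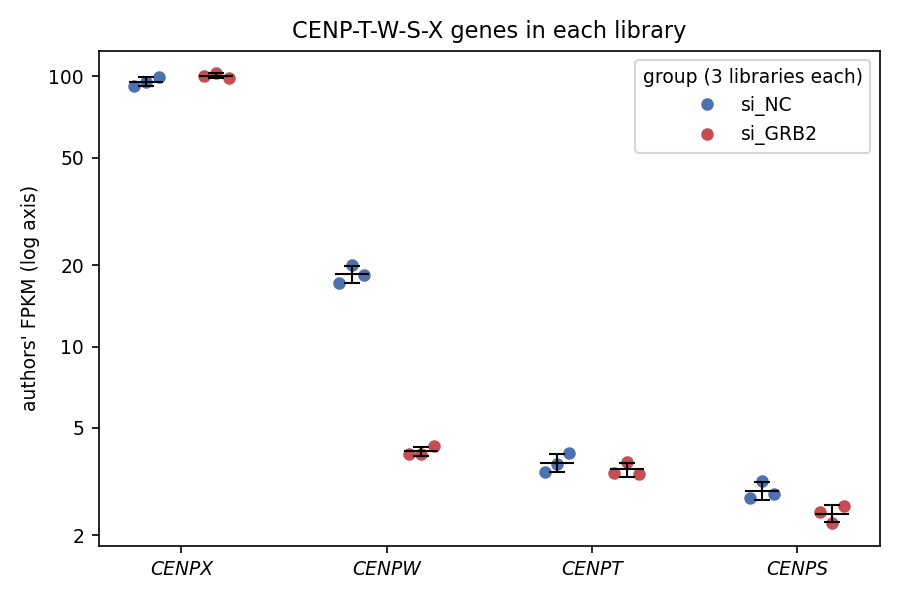
Level of the genes of the CENP-T-W-S-X complex in each library, in the authors' FPKM on a log axis, with points for the 3 si_NC and 3 si_GRB2 libraries, a long bar at each group's mean and an error bar of 1 SD. CENPW goes from a mean of 18.5 to 4.09 FPKM, while CENPX lies between 92.2 and 102.7 FPKM and CENPT and CENPS stay between 2.22 and 4.03 FPKM.

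Over the 49 members, 19 fell and 2 rose at an adjusted p under 0.05, and 28 did not pass the test. The members that fell were 38.8% of the 49, beside a background of 15.5% of all tested genes, and those that rose were 4.08%, beside a background of 15.2%. In either direction 21 members passed the test (42.9%), beside a background of 30.6%. Most of the falls were small, as 11 of the 19 were under 1.2-fold and only 3 members passed the study's limits of a fold change above 1.5 and a p under 0.01, applied here to the adjusted p: CENPW and OIP5 fell and ZW10 rose. Of the members, 10 passed the test with a change of more than 1.2-fold (20.4%, beside a background of 13.8%). The 3 past the study's limits were 6.12% of the members, beside a background of 2.52% in either direction, 1.69% for falls and 0.829% for rises. The log2 fold change was negative in 40 of the 49 members (81.6%) and in 49.6% of all tested genes. Its median was −0.11 over the members, with or without CENPW, and 0.0019 over all tested genes. In 24 members every si_GRB2 library was below every si_NC library in CPM, and in 3 every one was above, beside backgrounds of 21.2% and 21.1% of all tested genes, and 42.3% in either direction. AURKB was the single member that passed the test while its groups overlapped.

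The counts changed where the authors' FPKM were tested in place of the counts. With limma on log2(FPKM + 1) over 29912 genes with no filter, 8 members fell (CENPW, OIP5, HJURP, CENPO, CENPM, SPC24, SPC25 and CDCA8) and 1 rose (ZW10), so the other 12 calls were lost. The members that fell were then 16.3% of the 49, beside 1.89% of all genes in that fit, where the share of calls that were lower went from 50.5% to 40.4%. With only genes of a mean FPKM of at least 1, 11 members fell (22.4%, beside 9.07% of the 10888 genes) and 2 rose. In bulk RNA, fewer cells in the phases that express these genes and less of their RNA per cell cannot be told apart. Reference genes of the cell cycle, lists that hold no member, moved in the same direction in the main fit on counts, where 15.5% of all tested genes fell. Of 15 S-phase genes all 15 fell, with a median log2 fold change of −0.23 and summed levels of 2952 to 2984 CPM in si_NC and 2463 to 2565 CPM in si_GRB2. The largest falls were those of UHRF1 (−0.35), a reader of hemimethylated DNA, MCM2 (−0.31), a subunit of the replicative helicase, PCNA (−0.31), the sliding clamp, and RRM2 (−0.31), a subunit of ribonucleotide reductase. Of 15 genes of G2 and M, 14 were tested and 12 fell, with a median of −0.15 and summed levels of 2153 to 2231 CPM in si_NC and 1900 to 1963 CPM in si_GRB2. UBE2C (−0.31), CDCA3 (−0.30), CDK1 (−0.27) and TOP2A (−0.25) fell most among them. The part of a changed cycle in the falls of the members was not tested.

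**Figure D2:**
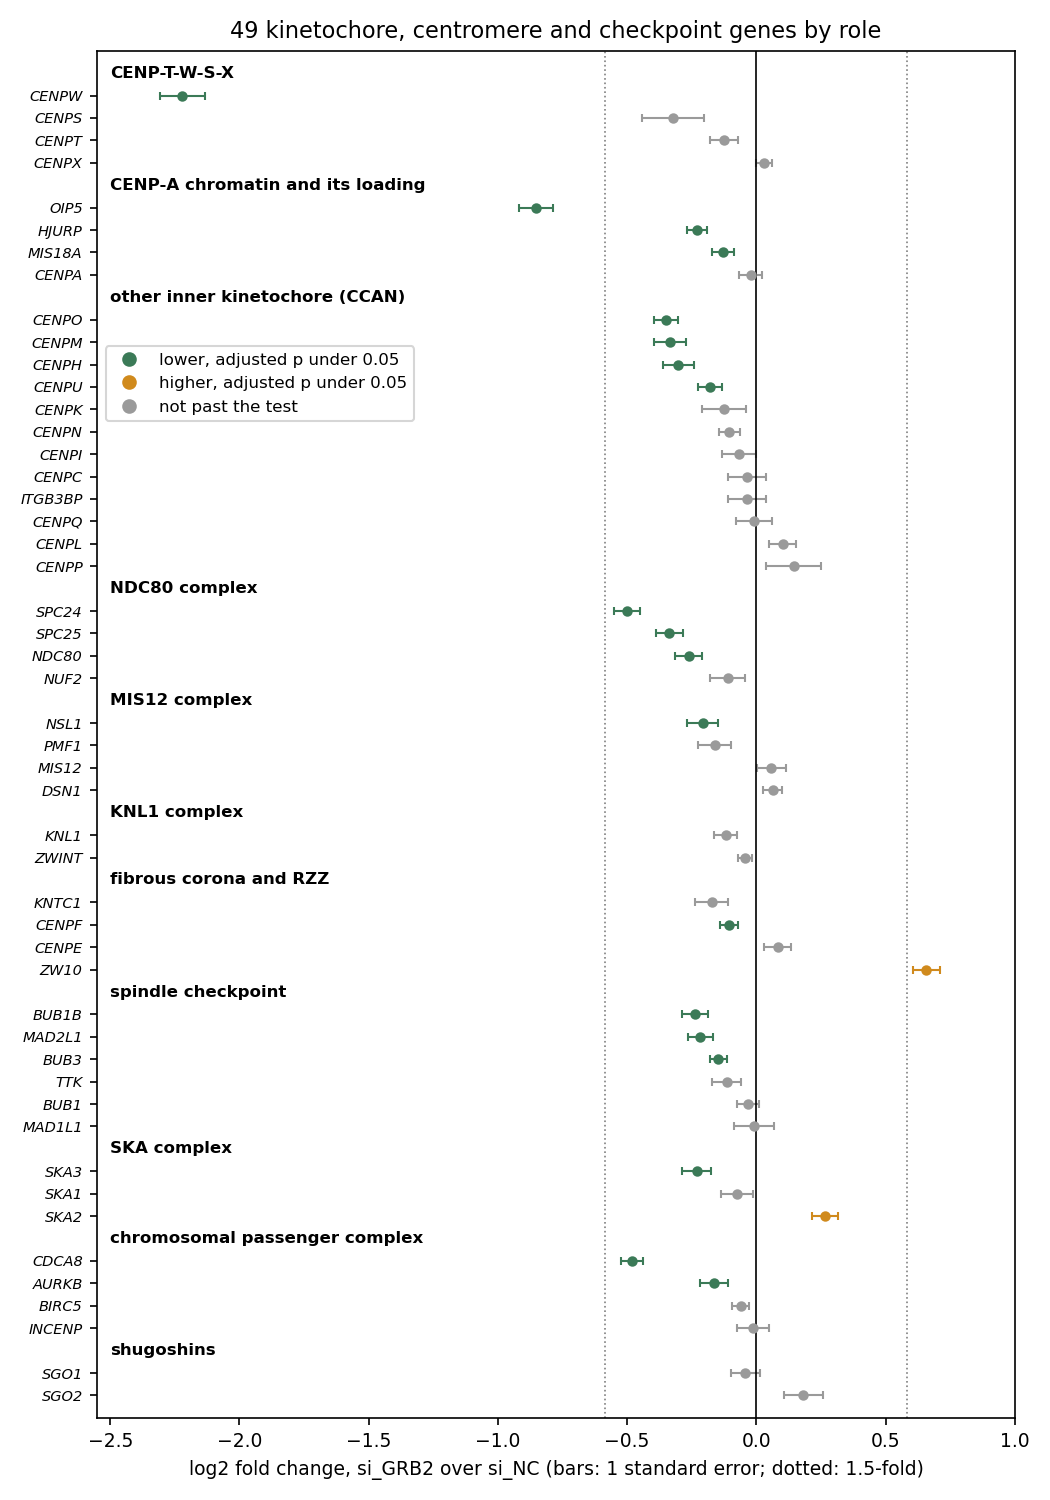
Log2 fold change of the 49 members, si_GRB2 over si_NC, grouped by role, with bars of 1 standard error, colours for the test and dotted lines at 1.5-fold. CENPW at −2.22 lies far to the left of every other member, 40 of 49 points lie left of 0, and ZW10 at 0.66 is the only point past the right dotted line.

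**Figure D3:**
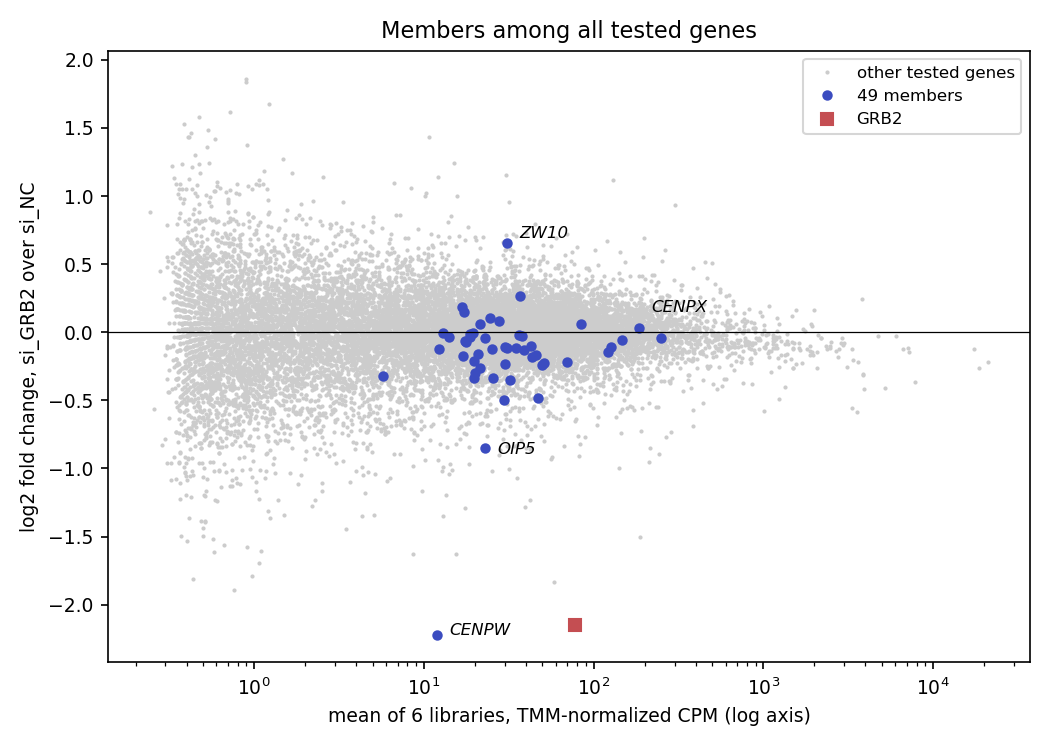
Log2 fold change (y axis) against the mean level of 6 libraries in CPM (x axis, log) for the 15801 tested genes in grey, the 49 members in blue and GRB2 in red. CENPW and GRB2 lie lowest, and apart from OIP5 and ZW10 the other members lie between −0.50 and 0.27.

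Among the genes of CENP-A chromatin, the loading factors fell and CENP-A itself did not pass the test. OIP5 (ENSG00000104147.9, chromosome 15, 41309273 to 41332591, minus strand), also called Mis18-beta, is a subunit of the complex that primes centromeres for new CENP-A. It had 27.5, 30.9 and 29.8 CPM in si_NC and 17.6, 15 and 16.4 CPM in si_GRB2. The groups lay far apart, and the log2 fold change was −0.85 (SE 0.07, adjusted p = 7.44e-08), the lowest of the members after CENPW. Its locus is crowded, since 92.5% of the exon bases of OIP5 overlap opposite-strand genes, among them the long noncoding RNA OIP5-AS1 and the gene RP11-16O9.3 (ENSG00000285920.2). OIP5-AS1 rose by 0.26 (adjusted p = 0.000202) and RP11-16O9.3 fell by 0.23 (adjusted p = 2.28e-05) on the log2 scale. The libraries were strand-specific, but whether the counting used strand is not given in the sources used here, and without it reads of OIP5 and of these genes cannot be told apart. HJURP, the chaperone that deposits CENP-A, fell by 0.23 on the log2 scale (adjusted p = 0.000247), with mean levels of 55.4 ± 0.0592 and 47.3 ± 0.739 CPM (SD, n = 3 each). MIS18A, the partner of OIP5, fell by 0.13 (adjusted p = 0.0315). It lost this call with DESeq2, with a replicate block, in every fit on FPKM and without single libraries (si_NC replicates 1 or 2, si_GRB2 replicates 1 or 2). CENPA had a log2 fold change of −0.02 (adjusted p = 0.777).

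Of the 12 other CCAN genes, 4 fell and 0 rose, beside backgrounds of 15.5% and 15.2% of all tested genes. The median log2 fold change of the 12 was −0.09. CENPO, a subunit of the CENP-O/P/Q/R/U complex, had 35, 36.7 and 35.8 CPM in si_NC and 29, 27.3 and 28 CPM in si_GRB2. Its log2 fold change was −0.35 (SE 0.05, adjusted p = 2.71e-05) and its groups did not overlap. Of its exon bases 31.6% overlap opposite-strand genes, mainly ADCY3, an adenylyl cyclase gene that itself fell by 0.76 on the log2 scale (adjusted p = 7.13e-09). CENPM, of the CENP-H/I/K/M complex, had 23.2, 21.3 and 21.6 CPM in si_NC and 17.9, 18.2 and 16.3 CPM in si_GRB2, with a log2 fold change of −0.33 (SE 0.06, adjusted p = 0.000613). CENPH, of the same complex, had 20.5, 23.1 and 22.6 CPM in si_NC and 17.3, 18.4 and 18 CPM in si_GRB2, with a log2 fold change of −0.30 (SE 0.06, adjusted p = 0.00125). The other genes of that complex, CENPI (−0.07) and CENPK (−0.12), did not pass the test and their groups overlapped. CENPU fell by 0.18 (adjusted p = 0.0066), a call lost in every fit on the authors' FPKM. The call of CENPH was lost in the fits on FPKM without a minimum FPKM. CENPC, which binds the CENP-A nucleosome directly, had a log2 fold change of −0.04, CENPN, which also reads CENP-A, −0.10, its partner CENPL 0.10, CENPP 0.15, CENPQ −0.01 and ITGB3BP, also called CENP-R, −0.04. None of these 6 passed the test, and of them the groups of CENPN and CENPL did not overlap in CPM, while those of CENPN did in FPKM. Of the exon bases of CENPP, 39.9% overlap the opposite-strand gene IPPK, which had 12819 reads against 2748. IPPK rose by 0.31 on the log2 scale (adjusted p = 4.17e-06).

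In the outer kinetochore, 3 of 4 genes of the NDC80 complex, the main microtubule coupler, fell, beside a background of 15.5% of all tested genes. The median log2 fold change of the 4 was −0.30. SPC24 had 34.3, 34.7 and 35.7 CPM in si_NC and 25.4, 25.5 and 23.3 CPM in si_GRB2. Its log2 fold change of −0.50 (SE 0.05, adjusted p = 1.39e-06) was the lowest of the complex. SPC25, with which SPC24 forms the end of the complex that docks on the kinetochore, had 28.3, 29.1 and 28.3 CPM in si_NC and 23.8, 21.4 and 22.6 CPM in si_GRB2, with a log2 fold change of −0.34 (SE 0.05, adjusted p = 0.00013). For neither gene did the groups overlap. NDC80, which binds the microtubule, fell by 0.26 (adjusted p = 0.00114), while NUF2, its partner at that end, had a log2 fold change of −0.11 (adjusted p = 0.243) and overlapping groups. The call of NDC80 was lost in the fits on FPKM without a minimum FPKM. The difference between SPC24 and NUF2 was not tested.

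Of the 4 genes of the MIS12 complex, which links the CCAN to NDC80, NSL1 fell by 0.21 (adjusted p = 0.014). It lost this call with DESeq2, in every fit on FPKM and without si_NC replicate 2. PMF1 (−0.16), MIS12 (0.06) and DSN1 (0.06) did not pass the test, and 23.3% of the exon bases of PMF1 belong to the read-through gene PMF1-BGLAP too, which had 4372 reads against 3319. PMF1 passed the test with those reads added (−0.20, adjusted p = 0.00288), in a robust fit (adjusted p = 0.0456) and without si_NC replicate 2 (−0.21, adjusted p = 0.0328). PMF1-BGLAP itself fell by 0.23 (adjusted p = 0.00334), so the sum with its reads is not a value of PMF1 alone. KNL1, the scaffold on which BUB proteins gather, had a log2 fold change of −0.12 (adjusted p = 0.0602) and its binding partner ZWINT one of −0.04 (adjusted p = 0.265). In both, no si_GRB2 library reached the si_NC range in CPM, though the log2 fold changes were small. In FPKM the groups of both genes overlapped, and ZWINT had a mean of 85.6 FPKM in each group. ZWINT was among the highest members, with 250 to 258 CPM in si_NC and 243 to 249 CPM in si_GRB2.

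ZW10 was the only member with a rise past 1.5-fold. It encodes a subunit of the RZZ complex, which brings dynein and the checkpoint proteins MAD1 and MAD2 to unattached kinetochores, and it also works in transport between the endoplasmic reticulum and the Golgi. ZW10 (ENSG00000086827.9, chromosome 11, 113733187 to 113773735, minus strand) had 23.9, 22.4 and 25.5 CPM in si_NC and 38.1, 38.7 and 36.5 CPM in si_GRB2. The groups were well separated, at 23.9 ± 1.54 and 37.8 ± 1.11 CPM (SD, n = 3 each), and the log2 fold change was 0.66 (SE 0.05, adjusted p = 1.22e-07), a 1.58-fold rise. No exon base of ZW10 overlaps another annotated gene. KNTC1, the ROD subunit of the same complex, had a log2 fold change of −0.17 (adjusted p = 0.0521), and its 3 si_GRB2 libraries, at 15, 16 and 16.7 CPM, lay below its si_NC libraries, at 17.3, 17.9 and 18.6 CPM. ZWILCH, the remaining subunit and no member, had a log2 fold change of −0.01 (adjusted p = 0.796) and overlapping groups. ZW10 thus rose, while KNTC1 and ZWILCH did not pass the test, and the differences among the subunits were not tested. Of the corona motor proteins and their partners, CENPF fell by 0.11 (adjusted p = 0.0281), and the kinesin gene CENPE had 0.08 (adjusted p = 0.267). The call of CENPF was lost in every fit on FPKM and without si_NC replicate 2 or si_GRB2 replicate 1.

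Among the 6 spindle checkpoint genes 3 fell and 0 rose, beside backgrounds of 15.5% and 15.2% of all tested genes. The median log2 fold change of the 6 was −0.13. BUB1B, which encodes BUBR1, a part of the mitotic checkpoint complex, fell by 0.24 (adjusted p = 0.00176). MAD2L1, which encodes the MAD2 that inhibits CDC20, fell by 0.22 (adjusted p = 0.00276), and BUB3, which anchors the BUB kinases on KNL1, fell by 0.15 (adjusted p = 0.0019). All 3 of these calls were lost in every fit on the authors' FPKM. The kinase genes BUB1 (−0.03) and TTK (−0.11) and the MAD2 anchor MAD1L1 (−0.01) did not pass the test, and their groups overlapped. Of the exon bases of MAD1L1 43.2% belong to a read-through gene on the same strand as well, which had 18201 reads against 3092. That gene itself fell by 0.14 on the log2 scale (adjusted p = 0.00583). The sum of both genes passed the test, at −0.12 (adjusted p = 0.014). Most reads of the sum are from the read-through gene, so it is not a value of MAD1L1 alone.

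The SKA complex tracks microtubule ends with NDC80, and of its 3 genes 1 rose, 1 fell and 1 did not pass the test. Of all tested genes 15.2% rose and 15.5% fell. SKA2 had 32.8, 35 and 33 CPM in si_NC and 38.1, 41 and 41.9 CPM in si_GRB2, and its log2 fold change was 0.27 (SE 0.05, adjusted p = 0.00055). It was the other member that rose, with no overlap between its groups, and its call was lost in the fits on FPKM without a minimum FPKM. SKA3 fell by 0.23 (adjusted p = 0.00486), a call lost in every fit on FPKM, and SKA1 had a log2 fold change of −0.07 (adjusted p = 0.421). The differences among them were not tested.

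Of the chromosomal passenger complex, which corrects wrong attachments, 2 of 4 genes fell, beside a background of 15.5% of all tested genes. CDCA8, the gene of the subunit borealin, had 54.8, 55.5 and 53.8 CPM in si_NC and 38.3, 38.3 and 41 CPM in si_GRB2. The groups did not overlap, and the log2 fold change was −0.48 (SE 0.04, adjusted p = 3.3e-07). AURKB, the kinase of the complex, fell by 0.16 (adjusted p = 0.031), with 45, 49.4 and 49.8 CPM in si_NC and 46.3, 42.3 and 40.1 CPM in si_GRB2. The highest si_GRB2 library of AURKB lay above its lowest si_NC library. Its call was lost with DESeq2, in every fit on FPKM and without si_NC replicates 2 or 3 or si_GRB2 replicates 2 or 3. INCENP (−0.01) and BIRC5 (−0.06), which encodes survivin, did not pass the test. The shugoshins SGO1 (−0.04) and SGO2 (0.18), which protect centromeric cohesion, did not pass it either.

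**Figure D4:**
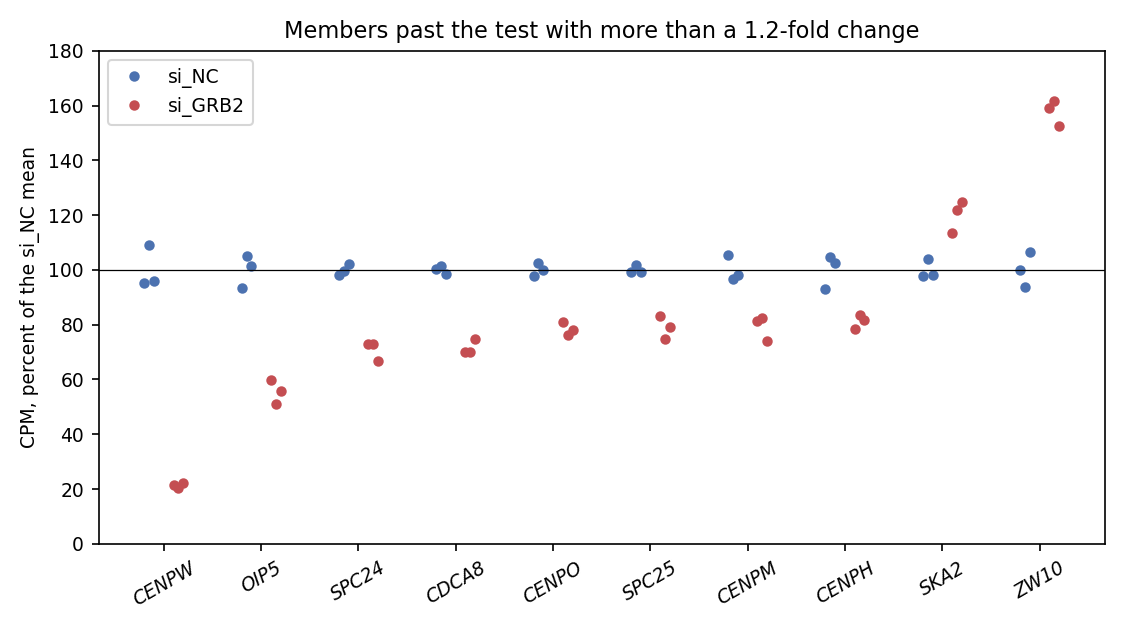
Level of the 10 members that passed the test with a change of more than 1.2-fold, in each library, as CPM in percent of the gene's si_NC mean. The si_NC and si_GRB2 points do not overlap for any of the 10 genes, and CENPW stands lowest, with a mean change of −78.5%, and ZW10 highest.

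Other kinetochore and checkpoint genes outside the members formed a list of 24. Of these, 23 were tested, and 7 fell and 1 rose, beside backgrounds of 15.5% and 15.2% of all tested genes. The median log2 fold change of the list was −0.08. The falls of PLK1 (−0.29), the mitotic kinase, RANGAP1 (−0.26), the activator of the RAN GTPase, CDC20 (−0.25), the target of the checkpoint, and KNSTRN (−0.21), which encodes a kinetochore-bound partner of SPAG5, were the largest of the list. NDEL1, a dynein regulator, rose by 0.13. Among the 45 members outside the CENP-T-W-S-X complex, log2 fold changes ran from −0.85 to 0.66, and CENPW, at −2.22, lay below both ranges.

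Standard errors of the members' log2 fold changes lay between 0.0272 and 0.1194. The members that did not pass the test had log2 fold changes between −0.32 and 0.18, and a p that missed the threshold does not show that these genes were alike in the 2 groups. Members' exons overlap other annotated genes in 20 of 49 cases, in 8 of them over more than 20% of exon bases.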

How the data were processed

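Poly(A) RNA of 3 si_NC and 3 si_GRB2 libraries of SK-BR-3 was sequenced. HISAT2 was used by the authors to align reads to GRCh38, and they deposited the count of uniquely mapped reads for each of 30327 genes, without normalization. The deposited FPKM, for 29912 genes, were computed by the authors from reads and gene length, and were used here to compare levels between genes. The counting tool, the annotation release and the use of strand in counting are not given in the sources used here.

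The quasi-likelihood test of edgeR 4.0.16 in R 4.3.3 was run on the counts of 15801 genes that passed filterByExpr, with TMM factors, group as the single term and si_GRB2 set against si_NC. P-values were adjusted by the Benjamini-Hochberg method over all genes kept, and the SE is the estimate over the square root of F. CPM are TMM-normalized. DESeq2 1.42.0, limma 3.58.1 on log2(FPKM + 1) or log2(FPKM + 0.1), other filters and scalings, a replicate block and each library left out in turn were the alternatives. The edgeR steps were tested on simulated data. Positions, exon overlaps and neighbours were from GENCODE 44 on GRCh38, where 44 of 49 member IDs had the same version. Python 3.11.15 with scipy 1.17.1 gave the exact permutation tests.

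Values in each library are given for GRB2, CENPW, CENPT, CENPS, CENPX and every member with an adjusted p under 0.05 and a change above 1.2-fold. At most 4 genes that fell are named per list of other genes. The values of KNTC1, AURKB and ZWINT in each library, the value of ZWILCH and the genes that overlap or neighbour members were added after values were seen. The members, lists and alternatives were chosen with earlier results of these data known.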

Additional observations from a re-analysis of the deposited data

How the results depend on the processing

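The counts of 2 falls and 1 rise past the study's limits were the same under all 17 alternatives, and log2 fold changes ran from −2.26 to −1.94 for CENPW and from −2.18 to −1.91 for GRB2. Over these alternatives 8 to 23 members fell and 1 to 3 rose. With limma on log2(FPKM + 1) or log2(FPKM + 0.1) 8 fell and 1 rose, and with a mean FPKM of at least 1 11 fell. These fits also moved the lower share of all calls from 50.5% to 36.7–40.4%. With 1 library left out, 16 to 19 members fell and 2 to 3 rose. DESeq2 kept 18 of the 21 calls (lost: AURKB, MIS18A, NSL1).

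CENPS passed the test at −0.33 with upper quartile scaling and with a minimum of 10 counts per library, −0.32 with a robust fit, −0.20 with limma at a mean FPKM of at least 1, −0.23 with read-through reads added and −0.37 without si_NC replicate 3, and ran from −0.37 to −0.25 with 1 library left out. KNTC1, KNL1, CENPN and SGO2 also passed the test under some of the alternatives. Deviations of same-numbered libraries from their group means correlated at 0.232, −0.0948 and 0.0804. Differently numbered libraries had correlations from −0.282 to 0.228. With 3 libraries in each group, these values cannot settle whether the numbers pair the libraries. The replicate block kept 20 of the 21 calls, lost MIS18A and added CENPS (−0.32).

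In 37 of 833 refits of single members the sign turned, in 10 members, 0 of them called. With limma on log2(FPKM + 1), with or without the minimum, and on log2(FPKM + 0.1), the values were 0.0204 and 0.0215 for CENPA, 0.0048 and 0.0064 for CENPC, 0.0307 and 0.0352 for CENPQ, 0.0046 and 0.0041 for ITGB3BP, 0.0105 and 0.0124 for BUB1, 0.0244 and 0.0359 for MAD1L1, 0.0211 and 0.0267 for INCENP, 0.0016 and 0.0018 for SGO1 and 0.0006 in each for ZWINT. With 1 library left out they ran from −0.0543 to 0.0060 for CENPA, −0.1093 to 0.0093 for CENPC, −0.0045 to 0.2647 for CENPP, −0.0335 to 0.0112 for CENPQ, −0.1107 to 0.0409 for ITGB3BP, −0.1096 to 0.0359 for MAD1L1 and −0.0656 to 0.0219 for INCENP. The TMM factors of the counts ran from 0.9758 to 0.9884 in si_NC and from 1.0153 to 1.0199 in si_GRB2, while the FPKM were used as deposited. The cause of the turned signs was not tested. Standard errors were largest for CENPS, CENPP and CENPW, and CENPS and, in si_GRB2, CENPW had the fewest reads.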

Other observations

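NUSAP1, a spindle gene of the G2 and M list, had 19 reads over the 6 libraries, while RP11-16O9.3 (ENSG00000285920.2), whose exons hold 81.4% of its exon bases on the same strand, had 21746. The value of NUSAP1 in these counts is therefore not a measure of its transcript alone. RP11-16O9.3 also overlaps OIP5, on the opposite strand. Reads on annotated pseudogenes of members were few, with 1 pseudogene each for CENPC, CENPN and MAD2L1 and at most 0.0443% of the reads of the gene.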
